A study of Mus musculus with 7 samples.

Results

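The epithelial junction and EMT genes are a list of 37 mouse genes that build or control contacts between epithelial cells, together with transcription factors of the epithelial to mesenchymal transition (EMT). They were chosen by gene symbol, with earlier results of these data known. Of these genes, 36 had a probe set with a single symbol on the array, out of 22180 genes read in this way. Zeb2 appeared only on probe sets annotated with several symbols and was not analysed here. The study asked how induced pluripotent stem cells (iPSC) made without the pluripotency factor Nanog compare with wild-type (WT) pluripotent cells. RNA of 7 cultures of mouse cells of strain 129 was read on 1 Affymetrix whole-transcript array each. There were 2 arrays of Nanog knockout (KO) iPSC, 2 of WT iPSC, 1 of WT embryonic stem cells (ESC), 1 of Nanog KO embryonic fibroblasts (MEF) and 1 of WT MEF. The iPSC replicates are labelled as biological, without saying whether the KO iPSC arrays come from separate lines, and the labels do not tie the media (ESC, 2i/LIF or MEF medium) to samples. All p-values therefore measure the spread between these cultures only.

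Epithelial cells hold together through cadherins, tight junctions and desmosomes, and transcription factors of the Zeb, Snai and Twist families repress these genes in mesenchymal cells. Zeb factors and the microRNAs of the miR-200 family repress each other, while Grhl2 and Ovol factors keep the epithelial state. Reprogramming of fibroblasts passes through the opposite change, a mesenchymal to epithelial transition, in which E-cadherin and Epcam are switched on and the fibroblast factors are switched off.

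Nanog had log2 intensities of 7.50 and 7.44 on the KO iPSC arrays, against 12.84 and 12.76 in WT iPSC and 12.73 in WT ESC, so the labels of the pluripotent arrays matched their Nanog signal. On the MEF arrays it was 6.42 in KO MEF and 6.53 in WT MEF. Background was gauged on each array from 1394 olfactory and vomeronasal receptor genes, which act in sensory neurons, as the 95th percentile of their log2 intensities, and ran from 6.30 to 6.50. Of the 36 members, 25 lay above it on all 7 arrays. The KO iPSC arrays were close to each other, with 0 members differing by over 2-fold, while 4 members differed by over 2-fold between the WT iPSC arrays. The WT iPSC 1 array stood apart in a list of 23 fibroblast genes, whose summed linear intensity was 19902 and 20116 on the KO iPSC arrays, 40148 and 26655 on the WT iPSC arrays, 27572 in WT ESC, 113330 in KO MEF and 94378 in WT MEF. Of these 23 genes, 18 and 19 were above background in KO iPSC, 21 and 17 in WT iPSC, 21 in WT ESC, 23 in KO MEF and 22 in WT MEF. In RNA of whole cultures, fewer cells of a type and less RNA per cell cannot be told apart.

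**Figure D1:**
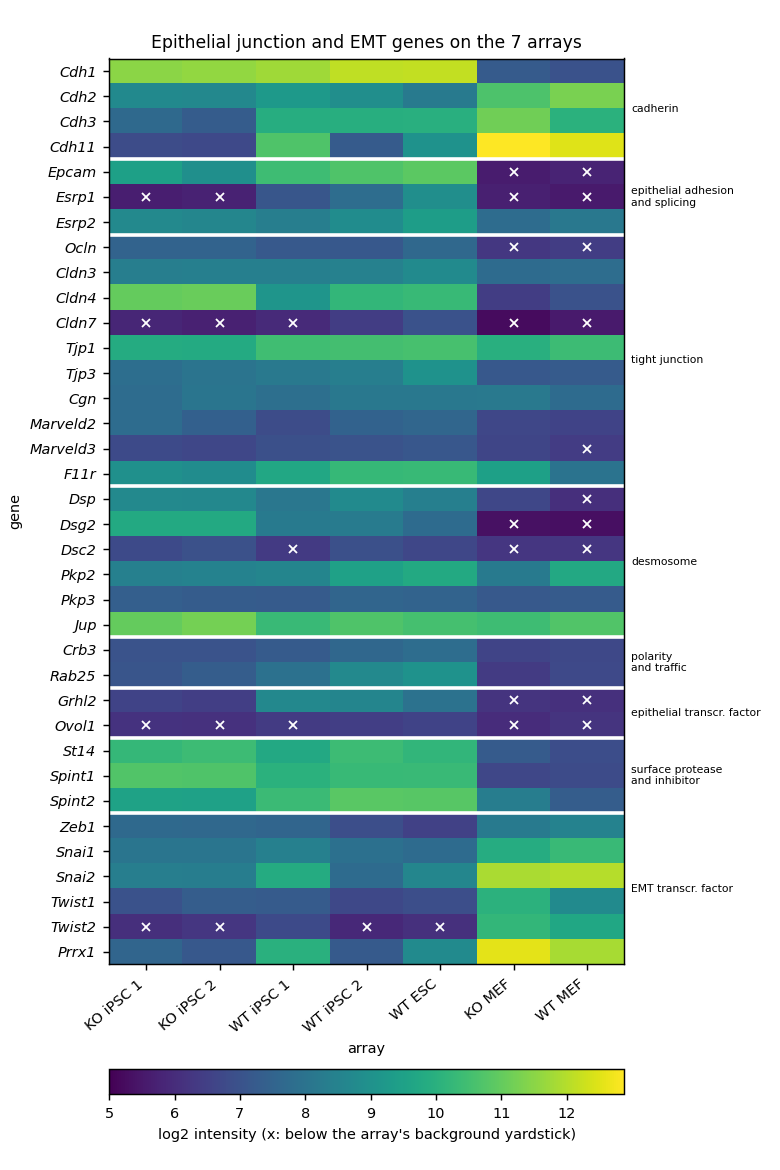
Log2 intensity of the 36 measured members (rows, grouped by role) on the 7 arrays (columns), from dark (low) to yellow (high), with a cross where the value lay below the array's background yardstick. The MEF columns are dark for Cdh1, Epcam, Dsg2 and Spint1 and bright for Cdh11, Snai2 and Prrx1, and the KO iPSC columns differ from the WT iPSC and WT ESC columns for Cdh3, Esrp1, Grhl2 and Dsg2.

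The question of the series is whether KO iPSC differ from WT pluripotent cells, and for the epithelial genes the answer was mixed by gene. In KO iPSC 8 members fell, namely Cdh3, Epcam, Esrp1, Tjp1, F11r, Rab25, Grhl2 and Spint2, while Dsg2, Jup and Spint1 rose. The remaining 25 of the 36 did not pass the test, among them Cdh1 and all 6 measured EMT transcription factors. The test was limma on the 2 KO iPSC arrays against the 3 WT pluripotent arrays (WT iPSC and WT ESC), with p-values adjusted by the Benjamini-Hochberg method across all 22180 genes and calls made at an adjusted p under 0.05. Over all genes, 8.81% fell and 6.89% rose by the same rule. This split over all genes depended on scaling, with 7.30% lower and 8.61% higher when each array was centred on its median, while the members' counts stayed at 8 and 3. The median log2 difference, KO minus WT, was -0.26 over the members and 0.03 over all genes. For 16 members every KO iPSC array lay below every WT pluripotent array, as did 23.2% of all genes, and for 5 members every one lay above, as did 28.4% of all genes. Without WT iPSC 1, 13 members fell and 5 rose, and the share of all genes in that setting is not given here. Leaving out either KO iPSC array, or counting both as 1 sample, left 1 KO sample. Most calls were then lost, and only Cdh3 kept its call in each of these fits.

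**Figure D2:**
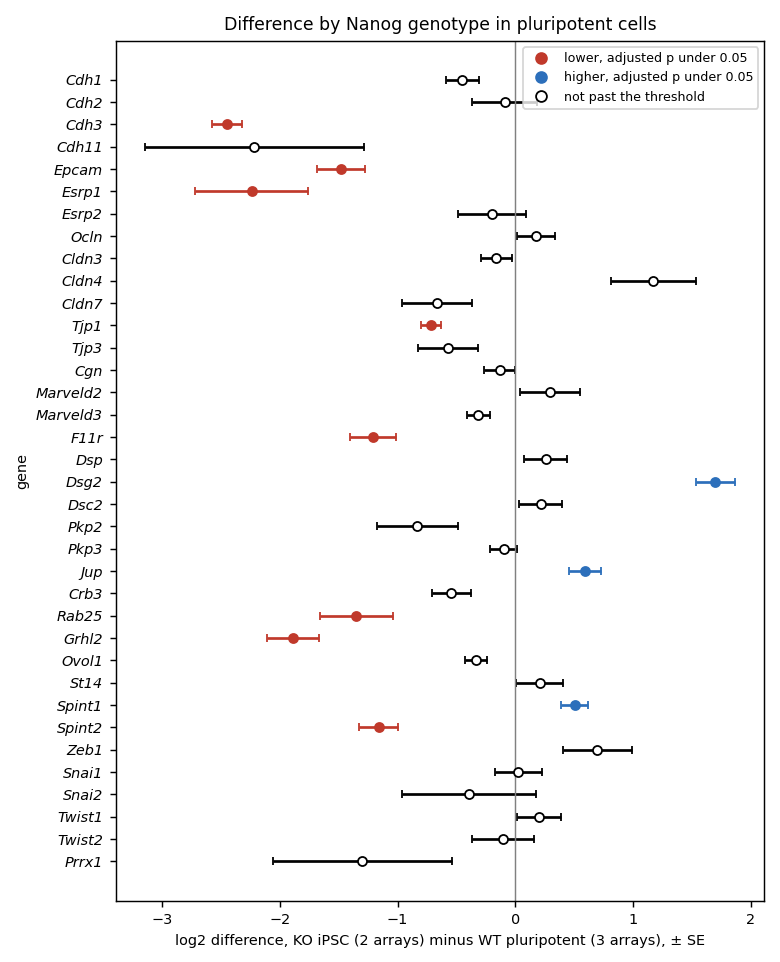
Log2 difference of KO iPSC (2 arrays) minus WT pluripotent cells (3 arrays) for the 36 members, with bars of 1 standard error from limma. Red points fell and blue points rose at an adjusted p under 0.05. The 8 red points run from -0.72 (Tjp1) to -2.45 (Cdh3) and the 3 blue points from 0.51 (Spint1) to 1.70 (Dsg2).

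Among the epithelial transcription factors, Grhl2, a grainyhead-like activator of Cdh1 and of tight junction genes, was near background in KO iPSC. Its log2 intensity was 6.58 and 6.47 in KO iPSC, against 8.67 and 8.60 in WT iPSC and 7.98 in WT ESC. The groups did not overlap, and the WT ESC array was the lowest of the 3 WT arrays. Grhl2 fell by 1.89 on the log2 scale (SE 0.22, adjusted p = 0.00541), which is 3.70-fold lower. Ovol1, a zinc finger repressor of Zeb1, lay close to background on every pluripotent array, between 6.11 and 6.57, and did not pass the test (adjusted p = 0.0648).

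The epithelial splicing regulators did not move together. Esrp1, which directs epithelial exon choice in adhesion and receptor genes, had log2 intensities of 5.65 and 5.74 in KO iPSC, below background, against 7.12 and 7.81 in WT iPSC and 8.88 in WT ESC. All WT values were above background and widely spread (SD 0.89, n = 3), with WT ESC highest. Esrp1 was at least 2.76-fold lower in KO iPSC (log2 difference -2.24, SE 0.48, adjusted p = 0.0326). Its paralogue Esrp2 had 8.71 and 8.60 in KO iPSC, against 8.36 and 8.81 in WT iPSC and 9.39 in WT ESC, with overlapping groups (log2 difference -0.20, SE 0.29, adjusted p = 0.682).

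Epcam, a cell surface adhesion molecule of epithelial and pluripotent cells, remained well above background in KO iPSC at lower values. It had log2 intensities of 9.47 and 8.93 in KO iPSC, against 10.43 and 10.71 in WT iPSC and 10.89 in WT ESC, with no overlap. The fall was 2.79-fold (log2 difference -1.48, SE 0.20, adjusted p = 0.00874). Without the KO iPSC 2 array the difference was -1.21 and no longer passed the test.

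The cadherins, which link neighbouring cells through calcium-dependent contacts, were led by Cdh3. P-cadherin, encoded by Cdh3, had log2 intensities of 7.68 and 7.31 in KO iPSC, against 9.91 and 9.94 in WT iPSC and 9.98 in WT ESC. The WT arrays were tight (SD 0.04, n = 3), and both KO iPSC arrays lay far below them. Cdh3 fell 5.46-fold (log2 difference -2.45, SE 0.13, adjusted p = 0.000629) and passed the test in all 11 alternative settings. Cdh1, encoding E-cadherin, the main adhesion protein of pluripotent colonies, had 11.52 and 11.59 in KO iPSC, against 11.75 and 12.11 in WT iPSC and 12.16 in WT ESC. Both KO iPSC values were below all WT values, by a small margin, and the difference did not pass the test (-0.45, SE 0.14, adjusted p = 0.0892).

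N-cadherin, encoded by Cdh2 and typical of mesenchymal and neural cells, showed overlapping groups. Its log2 intensities were 8.74 and 8.68 in KO iPSC, against 9.24 and 8.89 in WT iPSC and 8.26 in WT ESC (log2 difference -0.09, SE 0.28, adjusted p = 0.862). A second Cdh2 probe set, near background, gave a difference of 0.23, of the other sign. Cdh11, a cadherin of mesenchymal cells, had 6.82 and 6.75 in KO iPSC, against 10.71 and 7.27 in WT iPSC and 9.02 in WT ESC. The WT values spread widely, with WT iPSC 1 highest, as it was in the summed fibroblast list, and its part in the Cdh11 values was not tested. The difference of -2.22 had an SE of 0.93 and did not pass the test (adjusted p = 0.170), and without WT iPSC 1 it was -1.36.

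**Figure D3:**
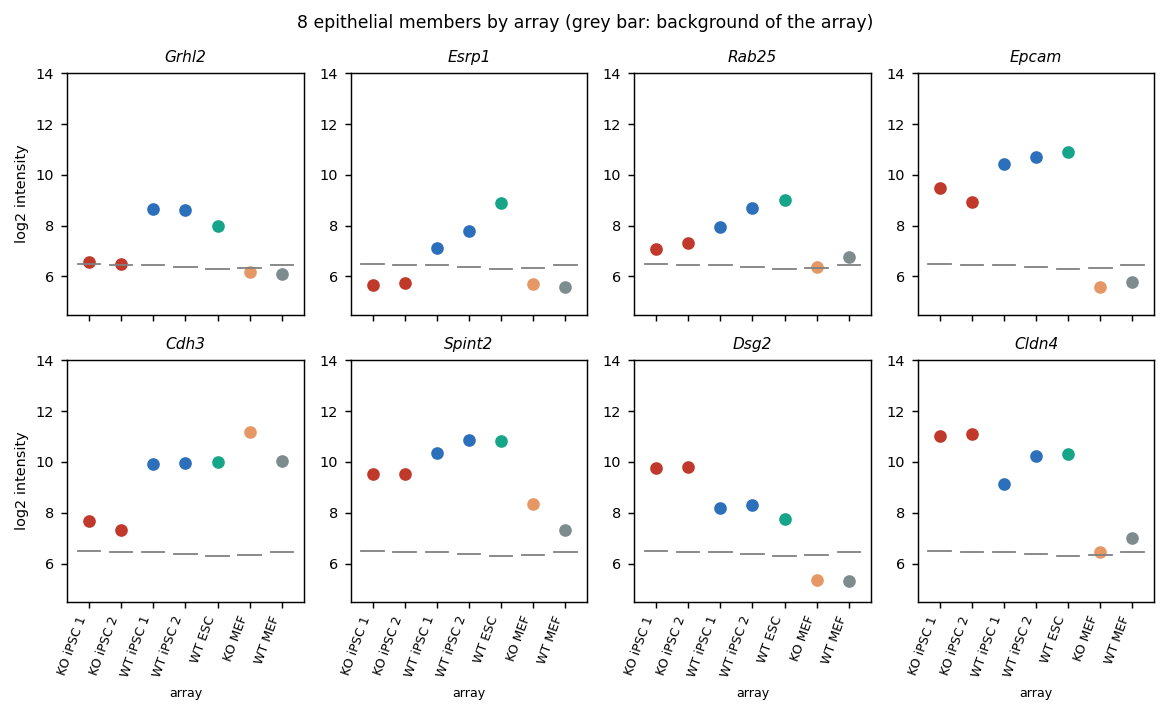
Log2 intensity of 8 members on each array, 1 point per array (red KO iPSC, blue WT iPSC, green WT ESC, orange KO MEF, grey WT MEF), with a grey bar at the array's background. Grhl2 and Esrp1 lie close to or below background in KO iPSC and in both MEF, Cdh3 is lower in KO iPSC than on any other array, and Dsg2 and Cldn4 are highest in KO iPSC.

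Of the polarity and traffic genes, Rab25, a small GTPase of apical recycling, had log2 intensities of 7.09 and 7.31 in KO iPSC, against 7.95 and 8.69 in WT iPSC and 9.01 in WT ESC. The groups did not overlap, and the fall was 2.55-fold (log2 difference -1.35, SE 0.31, adjusted p = 0.0386). Crb3, an apical polarity protein, lay lower in KO iPSC at 7.01 and 7.03, against 7.27 and 7.62 in WT iPSC and 7.81 in WT ESC, a difference of -0.54 that did not pass (SE 0.16, adjusted p = 0.0816).

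In the tight junction group of 10 members, 2 fell and 0 rose, and the group's median log2 difference was -0.24. Tjp1, the scaffold protein ZO-1, had log2 intensities of 9.83 and 9.80 in KO iPSC, against 10.46 and 10.54 in WT iPSC and 10.60 in WT ESC. These tight and separate values gave a small fall of 1.64-fold (log2 difference -0.72, SE 0.08, adjusted p = 0.00516). F11r, the junctional adhesion molecule JAM-A, had 8.96 and 8.82 in KO iPSC, against 9.72 and 10.27 in WT iPSC and 10.31 in WT ESC, a fall of 2.31-fold (log2 difference -1.21, SE 0.20, adjusted p = 0.0143). Cldn4, a sealing claudin, went the other way in level, at 11.02 and 11.08 in KO iPSC, against 9.12 and 10.22 in WT iPSC and 10.30 in WT ESC. Both KO iPSC arrays were above all WT arrays, but the low WT iPSC 1 array widened the spread and the difference of 1.17 did not pass (SE 0.36, adjusted p = 0.0864). Without WT iPSC 1 it was 0.79, and it passed.

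The other tight junction members differed less. Ocln, encoding the membrane protein occludin, had log2 intensities of 7.52 and 7.52 in KO iPSC, against 7.21 and 7.16 in WT iPSC and 7.65 in WT ESC. Its KO iPSC values lay between those of WT iPSC and WT ESC. Cldn3 had 8.36 and 8.41 in KO iPSC, against 8.40 and 8.46 in WT iPSC and 8.77 in WT ESC. Tjp3, the scaffold ZO-3, had 7.84 and 8.04 in KO iPSC, against 8.17 and 8.35 in WT iPSC and 9.01 in WT ESC. WT ESC was the highest array for each of these 3 genes. Cldn7 was below background in KO iPSC at 5.85 and 5.71, against 5.93 and 6.44 in WT iPSC and 6.99 in WT ESC. For Cgn, Marveld2 and Marveld3, which encode cingulin, tricellulin and a related membrane protein, the differences ran from -0.31 to 0.29, and none passed (adjusted p from 0.0859 to 0.547).

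Desmosomes anchor keratin filaments at cell contacts, and 2 of their 6 members rose while 0 fell. Dsg2, the desmosomal cadherin of simple epithelia and pluripotent cells, had log2 intensities of 9.78 and 9.79 in KO iPSC, against 8.20 and 8.29 in WT iPSC and 7.77 in WT ESC. The groups were far apart, with WT ESC lowest, and Dsg2 rose 3.25-fold (log2 difference 1.70, SE 0.17, adjusted p = 0.00329). A second Dsg2 probe set, below background on all 7 arrays, gave a difference of 0.30. Jup, encoding plakoglobin, had 11.01 and 11.22 in KO iPSC, against 10.32 and 10.70 in WT iPSC and 10.55 in WT ESC, a rise of 1.51-fold (log2 difference 0.59, SE 0.14, adjusted p = 0.0387). Dsp, encoding the filament linker desmoplakin, had 8.70 and 8.67 in KO iPSC, against 8.14 and 8.76 in WT iPSC and 8.39 in WT ESC, with overlapping groups. Pkp2, Pkp3 and Dsc2, which encode plakophilins and a desmocollin, had differences from -0.83 to 0.22 that did not pass (adjusted p from 0.166 to 0.614).

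The surface protease matriptase and its inhibitors, which control epithelial integrity, split by gene. Spint1, encoding the inhibitor HAI-1, had log2 intensities of 10.75 and 10.71 in KO iPSC, against 10.03 and 10.31 in WT iPSC and 10.33 in WT ESC, a rise of 1.42-fold (log2 difference 0.51, SE 0.12, adjusted p = 0.0389). Spint2, encoding the related inhibitor HAI-2, had 9.53 and 9.51 in KO iPSC, against 10.36 and 10.86 in WT iPSC and 10.83 in WT ESC, a fall of 2.24-fold (log2 difference -1.16, SE 0.17, adjusted p = 0.00989). The KO and WT arrays did not overlap for either inhibitor. St14, which encodes matriptase, had 10.25 and 10.39 in KO iPSC, against 9.75 and 10.41 in WT iPSC and 10.18 in WT ESC, with overlapping groups (log2 difference 0.21, SE 0.20, adjusted p = 0.526).

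Of the 6 measured EMT transcription factors, 0 passed in limma in either direction, and 0 had an unadjusted p under 0.05. Zeb1, a zinc finger repressor of Cdh1 and of the miR-200 genes, had log2 intensities of 7.69 and 7.68 in KO iPSC, against 7.56 and 6.88 in WT iPSC and 6.51 in WT ESC. Both KO iPSC arrays were above the 3 WT arrays, by a narrow margin over WT iPSC 1 (log2 difference 0.70, SE 0.29, adjusted p = 0.173). Without WT iPSC 1 the difference was 0.99, and it passed. Snai1 had 8.07 and 8.05 in KO iPSC, against 8.42 and 7.91 in WT iPSC and 7.76 in WT ESC, a difference of 0.03. Snai2 had 8.36 and 8.34 in KO iPSC, against 9.85 and 7.76 in WT iPSC and 8.62 in WT ESC. For both of these zinc finger repressors the KO iPSC values lay inside the WT range.

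The basic helix-loop-helix factors Twist1 and Twist2 and the homeobox factor Prrx1 likewise showed no call. Twist1 had log2 intensities of 6.98 and 7.32 in KO iPSC, against 7.25 and 6.71 in WT iPSC and 6.90 in WT ESC. Twist2 was below background in KO iPSC at 6.06 and 6.25, against 6.78 and 5.91 in WT iPSC and 6.08 in WT ESC. Only WT iPSC 1 was above background for Twist2 among the 5 pluripotent arrays. Prrx1 had 7.58 and 7.17 in KO iPSC, against 10.01 and 7.24 in WT iPSC and 8.77 in WT ESC (log2 difference -1.30, SE 0.76, adjusted p = 0.302). Its WT values followed the same array order as Cdh11, with WT iPSC 1 highest, and the part of fibroblast RNA in them was not tested.

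**Figure D4:**
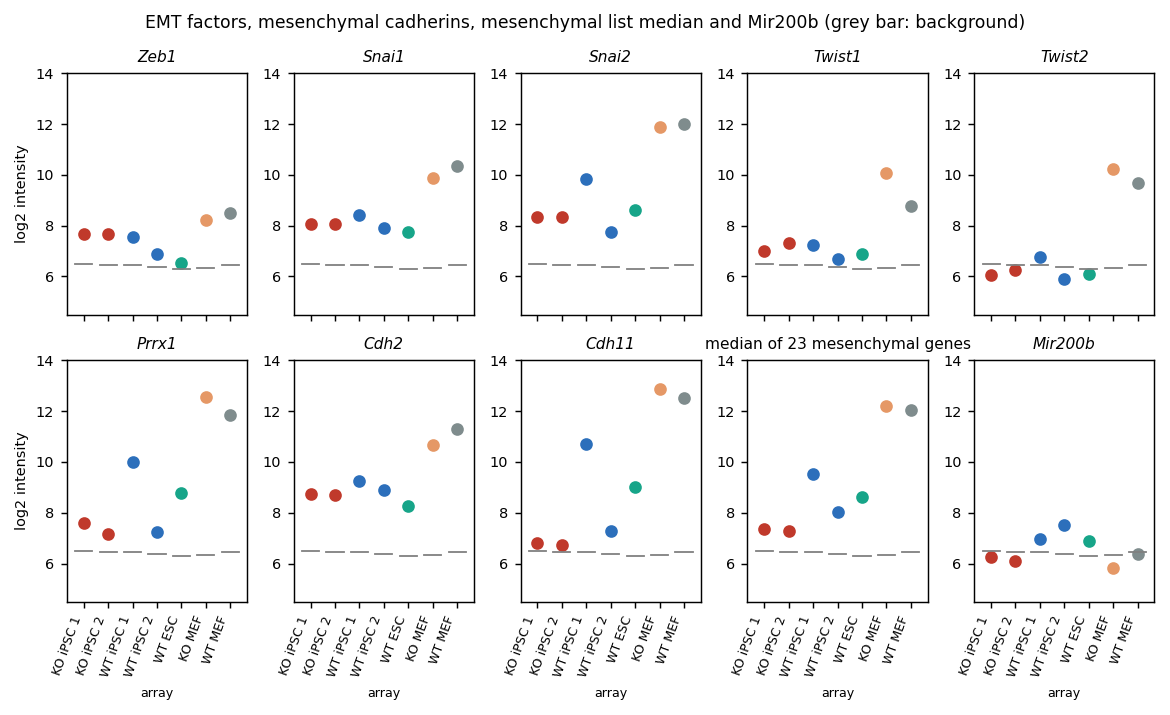
Log2 intensity of the 6 EMT factors, Cdh2, Cdh11, the median of 23 other mesenchymal genes and the Mir200b precursor, 1 point per array in the same colours, with a grey bar at background. Both MEF arrays are highest for every EMT factor, WT iPSC 1 is the highest pluripotent array for Snai2, Prrx1, Cdh11 and the mesenchymal median, and Mir200b is above background in the WT pluripotent arrays only.

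The miR-200 family was read through probe sets of its precursor genes, which do not tell the mature arms apart. The family is shown because it forms the feedback loop with Zeb1, and its members fall into a pair of seed groups, with the seed (bases 2 to 8) in capitals. The sequences are from RefSeq, build GRCm38.p6, and all are read from the minus strand. The first 3 share the seed AAUACUG and the last 2 share AACACUG.
mmu-miR-200b-3p (chr4:156055685-156055706): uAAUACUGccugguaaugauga
mmu-miR-200c-3p (chr6:124718324-124718346): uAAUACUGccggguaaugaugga
mmu-miR-429-3p (chr4:156053916-156053937): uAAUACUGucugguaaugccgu
mmu-miR-200a-3p (chr4:156054911-156054932): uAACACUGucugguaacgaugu
mmu-miR-141-3p (chr6:124717917-124717938): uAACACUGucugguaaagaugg

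The Mir200b precursor had log2 intensities of 6.25 and 6.12 in KO iPSC, below background, against 6.95 and 7.51 in WT iPSC and 6.88 in WT ESC, all above it. It was at least 1.56-fold lower in KO iPSC (log2 difference -0.93, SE 0.20, adjusted p = 0.0339). Its MEF values were 5.84 in KO MEF and 6.38 in WT MEF, both below background. The Mir200c and Mir141 probe sets lay between 4.14 and 4.60 on all arrays, below background. Mir200a was above background only in WT iPSC 2, at 6.48. Mir205, listed with the family but not among the sequences shown, was below background on every array. Its difference of -0.58 still passed the test (SE 0.10, adjusted p = 0.0186). Mir429 was not analysed here.

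Zeb and Snai proteins bind the E-box CACCTG, and Grhl proteins bind AACCGGTT, so both were searched in the RefSeq promoters (250 bases before to 50 after the start, build GRCm38.p6). The letters were read on both strands, as CACCTG or CAGGTG for the E-box, while AACCGGTT reads the same on both, and the motifs do not overlap. A promoter was given for 20 of the 36 measured members, in 25 entries, of which 17 held an E-box, against 20.21% of 32851 promoters of that length. The Grhl letters were found in 0 of the 20 genes and in 0.1461% of all promoters. Among members that fell in KO iPSC, 4 of 5 with a promoter held an E-box (Epcam, F11r, Rab25 and Spint2, but not Tjp1), and among those that rose 0 of 2 did (Jup and Spint1). Apart from the EMT factors, 8 of 9 members that did not pass held one too, as did 12 of 16 members in all. No comparison with promoters of like base composition was made, and a match is not a bound site. The 200 bases before the start of the 4 promoters with an E-box are shown, each in the direction of its gene, with the E-boxes in capitals.
Epcam (chr17:87635779-87635978, plus strand): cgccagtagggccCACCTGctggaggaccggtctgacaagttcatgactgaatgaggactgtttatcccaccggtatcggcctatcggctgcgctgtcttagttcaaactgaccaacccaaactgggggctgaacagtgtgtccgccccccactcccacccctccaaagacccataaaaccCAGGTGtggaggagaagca
F11r (chr1:171437361-171437560, plus strand): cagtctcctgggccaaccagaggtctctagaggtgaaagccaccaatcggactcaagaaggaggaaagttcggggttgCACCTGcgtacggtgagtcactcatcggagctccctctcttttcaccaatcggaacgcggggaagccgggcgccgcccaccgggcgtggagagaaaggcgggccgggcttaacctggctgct
Rab25 (chr3:88548280-88548479, minus strand): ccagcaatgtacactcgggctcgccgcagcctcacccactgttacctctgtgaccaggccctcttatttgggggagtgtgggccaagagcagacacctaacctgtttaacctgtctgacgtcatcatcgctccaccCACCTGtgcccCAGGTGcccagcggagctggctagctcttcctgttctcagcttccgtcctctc
Spint2 (chr7:29281978-29282177, minus strand): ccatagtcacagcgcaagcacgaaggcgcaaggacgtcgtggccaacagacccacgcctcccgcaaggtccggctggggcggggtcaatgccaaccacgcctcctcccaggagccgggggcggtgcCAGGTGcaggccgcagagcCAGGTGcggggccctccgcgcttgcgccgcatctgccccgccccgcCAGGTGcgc

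Set against WT iPSC alone, with the cell type held the same, the same 8 members fell in KO iPSC, and 2 rose, Dsg2 and Spint1, against 9.55% lower and 6.93% higher over all genes. This comparison uses the same KO iPSC arrays and the same WT iPSC arrays as the one above and is no independent repeat of it. Grhl2 fell 4.31-fold (log2 difference -2.11, SE 0.09, adjusted p = 0.000971), and Cdh3 fell 5.39-fold (-2.43, SE 0.14, adjusted p = 0.00164). Esrp1 was at least 1.99-fold lower (-1.77, SE 0.23, adjusted p = 0.0101), with WT ESC, its highest array, not in this contrast. Dsg2 rose 2.91-fold (1.54, SE 0.09, adjusted p = 0.00149), while Jup (0.61, SE 0.16, adjusted p = 0.0616) and Cldn4 (1.38, SE 0.36, adjusted p = 0.0611) did not pass. The calls depended on single arrays. Leaving out any 1 iPSC array left 1 array on that side, with the spread taken from the other iPSC pair alone. The standard deviation of gene differences was 0.15 within the KO pair and 0.32 within the WT pair. Members lost calls when a KO iPSC array was left out and gained calls when a WT iPSC array was left out. Counts from these fits are not read as results here.

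Between the WT pluripotent cells, 0 members rose and 0 fell in WT ESC against WT iPSC in limma, and 0.0812% of all genes passed in each direction. At an unadjusted p under 0.05 there were 9 members and 2704 of all genes. All 10 tight junction members had a log2 difference above 0, ESC minus iPSC, with a median of 0.39, and 0 of them passed. The median over all genes was -0.02. The largest differences among the members were those of Esrp1 (1.42, SE 0.28, adjusted p = 0.167), Cdh2 (-0.81, SE 0.17, adjusted p = 0.183) and Cldn7 (0.81, SE 0.23, adjusted p = 0.277). With 1 ESC array, whose spread is taken from the iPSC groups, this comparison had little precision. Leaving out either WT iPSC array left 1 array on each side, with the spread taken from the KO iPSC pair alone. Calls from those fits are not counted here.

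Against WT ESC alone, with no test, 12 members were at least 2-fold lower in KO iPSC and 2 at least 2-fold higher, as were 4.13% and 2.40% of all genes, counted on measured values, those below background included. Cdh3 differed by -2.49 on the log2 scale and Cdh11 by -2.24. Esrp1 was below background on both KO iPSC arrays, so its gap has only a lower bound and takes no place in an order. The members at least 2-fold higher were Dsg2 (2.02) and Zeb1 (1.17).

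The fibroblast to pluripotent comparison addresses the mesenchymal to epithelial transition of reprogramming. In iPSC against MEF, with genotype in the fit, 15 members rose and 8 fell, while 13 did not pass. Over all genes 16.0% rose and 14.7% fell, 30.7% together. The median log2 difference, iPSC minus MEF, was 0.58 over the members and 0.03 over all genes. Every iPSC array lay above both MEF arrays for 19 members, as for 25.7% of all genes, and below both for 9 members, as for 20.7%. All 6 measured EMT factors, Cdh2 and Cdh11 fell, and the 15 that rose came from the junction, adhesion, polarity and protease groups. Without KO iPSC 1, 10 members rose and 5 fell, and without KO iPSC 2, 11 rose and 5 fell. The share of all genes in those settings is not given here.

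Cdh1 had log2 intensities of 11.52 to 12.11 on the 4 iPSC arrays, against 7.26 in KO MEF and 6.99 in WT MEF. The rise was 24.5-fold (log2 difference 4.61, SE 0.19, adjusted p = 0.000343). Epcam was below background in both MEF, at 5.59 in KO MEF and 5.79 in WT MEF, and rose at least 11.2-fold (4.19, SE 0.31, adjusted p = 0.00110). These 2 surface adhesion genes were clearly separate from every MEF value on all 4 iPSC arrays. Rab25, at 6.36 in KO MEF and 6.75 in WT MEF, rose 2.31-fold (adjusted p = 0.0244), and Crb3, at 6.61 in KO MEF and 6.71 in WT MEF, rose 1.49-fold (adjusted p = 0.0313). Esrp2, at 7.77 in KO MEF and 8.17 in WT MEF, rose 1.57-fold (0.65, SE 0.18, adjusted p = 0.0428), a call that 5 of 10 alternative settings did not keep.

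The surface protease and its inhibitors rose as a whole group of 3. St14 had log2 intensities of 7.25 in KO MEF and 6.85 in WT MEF and rose 8.88-fold (log2 difference 3.15, SE 0.20, adjusted p = 0.000803). Spint1 had 6.68 in KO MEF and 6.81 in WT MEF and rose 13.0-fold (3.70, SE 0.18, adjusted p = 0.000497). Spint2 had 8.35 in KO MEF and 7.34 in WT MEF, and rose 4.66-fold (2.22, SE 0.48, adjusted p = 0.0214). All 4 iPSC arrays were above both MEF arrays for each of the 3 genes.

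Among tight junction members, 5 of 10 rose and 0 fell. Cldn4 had log2 intensities of 6.44 in KO MEF and 6.99 in WT MEF and rose 12.5-fold (log2 difference 3.64, SE 0.52, adjusted p = 0.00569). Ocln was below background at 6.27 in KO MEF and 6.43 in WT MEF, and rose at least 1.93-fold (adjusted p = 0.00450). Tjp3 (7.17 in KO MEF, 7.26 in WT MEF) rose 1.85-fold and Cldn3 (7.75 in KO MEF, 7.83 in WT MEF) rose 1.53-fold, with adjusted p of 0.00445 and 0.00436. Cldn7 also passed (0.58, adjusted p = 0.0456), at 5.23 in KO MEF and 5.56 in WT MEF, but 5 of 9 alternative settings did not keep this call and 5 of its 7 arrays were below background. Tjp1 was expressed in fibroblasts too, at 9.97 in KO MEF and 10.41 in WT MEF, and did not pass (-0.04, SE 0.10, adjusted p = 0.821).

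In desmosomes, 2 of 6 members rose. Dsg2 was below background at 5.36 in KO MEF and 5.33 in WT MEF, and rose at least 6.12-fold (log2 difference 3.67, SE 0.34, adjusted p = 0.00176). Dsp, at 6.67 in KO MEF and 6.06 in WT MEF, rose 4.60-fold (2.20, SE 0.20, adjusted p = 0.00168). Jup, whose product also sits in adherens junctions, was as bright in fibroblasts, at 10.43 in KO MEF and 10.74 in WT MEF, and did not pass (0.23, SE 0.24, adjusted p = 0.549).

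Every measured EMT factor was brighter in both MEF than in any pluripotent array. Twist2 had log2 intensities of 10.22 in KO MEF and 9.68 in WT MEF and fell 13.0-fold in iPSC (log2 difference -3.70, SE 0.29, adjusted p = 0.00126). Among the iPSC arrays only WT iPSC 1 was above background for Twist2, so this fold rests mostly on values below background. Prrx1, at 12.55 in KO MEF and 11.86 in WT MEF, fell 18.4-fold (-4.20, SE 0.86, adjusted p = 0.0176). Snai2, at 11.87 in KO MEF and 12.00 in WT MEF, fell 10.2-fold (-3.36, SE 0.57, adjusted p = 0.00950). The SE of Prrx1 and Snai2 was wider than that of Twist2, and these genes also differed more between the WT iPSC arrays. Twist1, at 10.05 in KO MEF and 8.75 in WT MEF, fell 5.06-fold (adjusted p = 0.00450), and Snai1, at 9.86 in KO MEF and 10.33 in WT MEF, fell 3.96-fold (adjusted p = 0.00156). Zeb1, at 8.23 in KO MEF and 8.48 in WT MEF, fell 1.87-fold (-0.90, SE 0.25, adjusted p = 0.0455), a call that 4 of 10 alternative settings did not keep. Of the mesenchymal cadherins, Cdh2, at 10.67 in KO MEF and 11.30 in WT MEF, fell 4.28-fold (adjusted p = 0.000856), and Cdh11, at 12.88 in KO MEF and 12.50 in WT MEF, fell 27.9-fold (-4.80, SE 1.07, adjusted p = 0.0238).

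The members that did not pass against MEF included several that differed by genotype. Whether the iPSC minus MEF difference itself differed by genotype was tested as an interaction, in which 4 members were lower and 1 higher in KO cells, against 5.48% and 3.07% of all genes (8.55% together). These were Cdh3, F11r, Grhl2 and Spint2, lower, and Dsg2, higher. The contrast rests on 1 MEF array per genotype, for which the fit borrows the iPSC spread. Leaving out any 1 iPSC array left the spread to the other iPSC pair alone. Only Cdh3 kept its call when 1 or the other KO iPSC array was left out. Further members passed when a WT iPSC array was left out, and they are not counted here.

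Cdh3 was bright in fibroblasts, at 11.17 in KO MEF and 10.04 in WT MEF (log2 intensity). Its iPSC minus MEF difference was -3.67 in KO cells and -0.11 in WT cells, an interaction of -3.56 (SE 0.25, adjusted p = 0.00582). Both KO iPSC arrays were below KO MEF, and the WT iPSC arrays were just below WT MEF. Grhl2 was below background in both MEF, at 6.17 in KO MEF and 6.10 in WT MEF. Since the KO iPSC values were also close to background, no rise can be read in KO cells, and the rise in WT cells has only a lower bound. The measured differences were 0.35 in KO cells and 2.54 in WT cells (interaction -2.19, SE 0.16, adjusted p = 0.00623). F11r had 9.48 in KO MEF and 7.99 in WT MEF, and its difference was -0.59 in KO cells and 2.00 in WT cells (interaction -2.59, SE 0.34, adjusted p = 0.0188).

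For Spint2 the difference was 1.17 in KO cells and 3.27 in WT cells (interaction -2.10, SE 0.31, adjusted p = 0.0237), so the gene was higher in iPSC than in MEF in both genotypes. Dsg2, below background in both MEF, had measured differences of 4.43 in KO cells and 2.92 in WT cells (interaction 1.51, SE 0.15, adjusted p = 0.0103). With no MEF signal above background, the rise of Dsg2 in each genotype is known only by a lower bound. Esrp1, below background in both MEF at 5.70 in KO MEF and 5.57 in WT MEF, had KO iPSC values on either side of KO MEF and a difference of 1.90 in WT cells, and its interaction did not pass (-1.90, SE 0.40, adjusted p = 0.0545). Cldn4 had 4.61 in KO cells and 2.68 in WT cells (interaction 1.93, SE 0.62, adjusted p = 0.133). For Cdh1 the difference was 4.29 in KO cells and 4.94 in WT cells (interaction -0.65, SE 0.24, adjusted p = 0.185), and for Epcam, also below background in both MEF, it was measured as 3.60 in KO cells and 4.79 in WT cells (interaction -1.18, SE 0.36, adjusted p = 0.122).

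**Figure D5:**
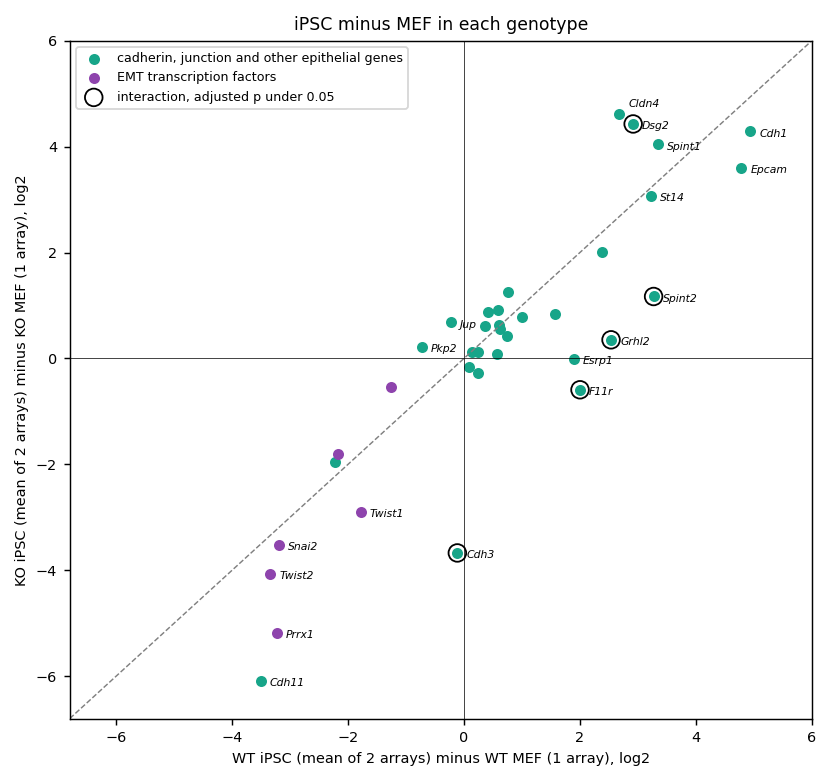
Log2 difference of iPSC minus MEF in KO cells (vertical) against WT cells (horizontal) for the 36 members, green for junction and other epithelial genes and cadherins, purple for EMT factors, with the diagonal of equal differences. The 5 circled members passed the interaction test: Cdh3, F11r, Grhl2 and Spint2 lie below the diagonal and Dsg2 above it. Positions are measured values, and Epcam, Esrp1, Ocln, Cldn7, Dsg2, Dsc2, Grhl2 and Ovol1 were below background in both MEF.

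By a 2-fold rule on measured values, those below background included, and without a test, 9 members were higher and 8 lower in KO iPSC than in KO MEF (7.67% and 10.1% of all genes). In WT iPSC 13 were higher and 8 lower than in WT MEF (7.64% and 8.17% of all genes). Between the fibroblasts, with 1 array per genotype and no test, 4 members were at least 2-fold higher in KO MEF and 1 lower, against 2.80% and 1.77% of all genes. F11r (1.49 on the log2 scale), Cdh3 (1.13), Spint2 (1.01) and Twist1 were higher, and Pkp2 was lower (-1.53), at 8.24 in KO MEF and 9.77 in WT MEF. So 3 of the 5 members with an interaction (Cdh3, F11r and Spint2) were also at least 2-fold apart between these MEF arrays, which are themselves terms of that contrast.

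Further genes of the same pathways were counted in the same fits. Over all genes 8.81% fell and 6.89% rose in KO iPSC against WT pluripotent cells. A count near those shares is no result about its list. In KO iPSC against WT pluripotent cells, 4 of 37 other junction genes fell and 6 rose, with Cldn6 (-2.59), Jam3 (1.55), Pard3 (1.48) and Magi1 (-1.25) showing the widest log2 differences. Of 23 other epithelial genes 4 fell, namely Grhl3 (-1.63), Map7 (-1.41), Erbb3 (-1.38) and Lad1 (-0.83), and 0 rose. Of 23 other mesenchymal genes 7 fell and 0 rose, led by Acta2 (-4.14), Tagln (-2.58), Col1a1 (-2.44) and Mmp14 (-2.19). Smooth muscle actin, encoded by Acta2, had log2 intensities of 7.99 and 8.08 in KO iPSC, against 12.76 and 11.91 in WT iPSC and 11.84 in WT ESC. Of 23 other EMT regulators 3 fell and 5 rose, with Hmga2 at 1.91, Tgfb1 at -1.48, Smad3 at -1.14 and Bmp7 at 0.83. Of 5 precursors listed with the miR-200 family 2 fell, Mir200b and Mir205. Of these, Mir205 is not among the family sequences shown and was below background on every array.

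In iPSC against MEF, where 16.0% of all genes rose and 14.7% fell, 13 of the 23 other epithelial genes rose and 0 fell. Among those that rose was Grhl3, at 9.22-fold. Map7, Elf3 and Hook1 were below background in both MEF and rose at least 5.67-fold, 5.25-fold and 5.05-fold, with no order to be read among bounds. Of the 23 other mesenchymal genes 20 fell and 0 rose, and of the 23 other EMT regulators 13 fell and 1 rose. The 37 other junction genes were mixed, with 9 higher and 7 lower. All 10 pluripotent cell markers rose. As for other cell types, 1 of 4 surface epithelium markers was above background on each pluripotent array, and 0 of these 4 passed in KO iPSC against WT pluripotent cells (1 had an unadjusted p under 0.05). In KO iPSC against WT pluripotent cells 8.81% of all genes fell and 6.89% rose. Of 10 pluripotent markers 3 fell in KO iPSC, Fgf4, Utf1 and Tdgf1. Of 7 trophectoderm markers 1 fell (Tfap2c, -1.53), and of 6 primitive endoderm markers 1 rose (Gata6, 1.15) and 1 fell (Dab2, -1.02).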

How the data were processed

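The values used here are probe set intensity values on a linear scale, which the authors made with RMA in Affymetrix Expression Console 1.3.0.187, per the submitters' processing notes; the genome build is not given in the sources used here. They ran from 9.67 to 13043. The plan for the tests had assumed log2 values, so the log2 was taken here, with no further normalization. Of 33649 probe sets, 23521 carried 1 gene symbol in the platform annotation, 1814 several and 8314 were not listed; the first kind was used, and a gene with several such probe sets (1082 genes) was read from the one with the highest mean over the 7 arrays. This gave 22180 genes. All 36 measured members matched a RefSeq gene.

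Differences were tested with limma 3.58.1 (lmFit and eBayes, two-sided) in R 4.3.3. KO iPSC against WT pluripotent cells used 5 arrays. The interaction and both comparisons with WT iPSC came from 1 fit of group means over 7 arrays, and iPSC against MEF from an additive fit with genotype over 6 arrays. Where all arrays of the dimmer side lay below background, the fold is a lower bound taken against the mean background of those arrays ("at least"), and the log2 difference beside it is the fitted one. The scripts were tested on simulated data with known changes. Alternatives were median centring, quantile normalization, a trended robust fit, leaving out the dimmest genes (0.33 of all), the mean of all probe sets of a gene, leaving out each replicate, counting both KO iPSC arrays as 1, adding WT ESC to the iPSC, only the 4 iPSC arrays with and without a replicate block, and another background percentile; the scaling alternatives of the differences without a test were added after seeing the data.

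The members and the gene lists were chosen with earlier results of these data known. Values of every array are given for members that pass in any of the 5 tests or that name their role, the others by ranges, and of other lists at most the 4 widest differences that passed, besides counts. Beyond this rule, the array values of Acta2, of the miR-200 family precursors and, in MEF, of Pkp2 were chosen after their values were seen. Arrays have no read depth, and their number limits the precision. Columns of other samples numbered 0.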

Additional observations from a re-analysis of the deposited data

Results flagged for a closer look

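For 5 members the iPSC minus MEF difference itself differed between genotypes in the interaction test of limma. The interaction on the log2 scale was -3.56 for Cdh3, -2.59 for F11r, -2.19 for Grhl2, -2.10 for Spint2 and 1.51 for Dsg2, with adjusted p from 0.00582 to 0.0237. For Cdh3 the KO iPSC arrays were below KO MEF by 3.67 on average, while WT iPSC lay 0.11 below WT MEF. F11r was lower in KO iPSC than in KO MEF and higher in WT iPSC than in WT MEF. Spint2 was higher in iPSC than in MEF in both genotypes. Grhl2 and Dsg2 were below background in both MEF, and Grhl2 was close to background in KO iPSC, so their interactions are differences of measured values that include levels below background. Without either KO iPSC array Cdh3 kept its call and the other 4 did not. Each value uses 1 KO MEF and 1 WT MEF array, and the part of either single array in it was not tested.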

How the results depend on the processing

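Median centring, quantile normalization, the trended robust fit, leaving out the dimmest genes and averaging probe sets left the counts of 8 lower and 3 higher members unmoved in KO iPSC against WT pluripotent cells. With both KO iPSC arrays counted as 1, 1 member was lower and 0 higher. Leaving out 1 replicate gave 1 to 13 lower and 0 to 5 higher members in this comparison, 2 to 14 lower and 1 to 8 higher in KO against WT iPSC, and 0 to 8 lower and 0 to 9 higher in WT ESC against WT iPSC. It gave 5 to 7 lower in iPSC against MEF, and 1 to 10 lower and 0 to 7 higher in the interaction. The share of all genes is not given here for the leave-out settings or with both KO iPSC arrays counted as 1. Where such a fit left 1 array on a side, its spread came from the other groups. These counts therefore show only that the calls depended on single arrays, not how the members compare with all genes. In KO against WT iPSC, quantile normalization gave 4 higher members, with Jup and Ocln added, and Rab25 no longer passed under median centring or quantile normalization. Scaling also moved the split of all genes called in KO iPSC against WT pluripotent cells, with 1529 higher and 1954 lower as deposited, 1910 and 1620 after centring, and 1896 and 1679 after quantile normalization. In KO against WT iPSC it was 1538 higher and 2118 lower as deposited, 1859 and 1795 after centring, and 1864 and 1854 after quantile normalization. The cause of these moves was not tested.

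The iPSC groups share replicate numbers 1 and 2. The deviations of same-numbered arrays correlated at 0.0166 across genes. This shows no strong shared deviation, but 1 correlation cannot settle whether the samples are paired. With the replicate block on the 4 iPSC arrays, 8 members were lower and 4 higher, with Cldn4 and Jup added. The share of all genes with that block is not given here. For Snai2, Cdh11 and Prrx1 the WT iPSC arrays lay far apart, and leaving out 1 or the other of them gave differences of opposite sign. With all arrays these genes had no call in the comparisons given below. They are not the only such members. Esrp2, Dsp and St14, among others, also had a KO iPSC mean between the WT iPSC arrays. Their sign in KO against WT iPSC thus turned with the WT iPSC array left out. Each such fit had 1 WT iPSC array and took its spread from the KO iPSC pair. For Snai2 the log2 difference ran from -1.50 to 0.59 in KO against WT iPSC, from -1.23 to 0.86 in WT ESC against WT iPSC and from -1.37 to 0.72 in the interaction. In WT ESC against WT iPSC, Cdh11 ran from -1.68 to 1.75 and Prrx1 from -1.23 to 1.53. The low ends were without WT iPSC 2 and the high ends without WT iPSC 1. With 1 array each for WT ESC, KO MEF and WT MEF, and 2 at most elsewhere, small differences could not be told from the spread, and members near background could not be ranked. With a 90th percentile background, 32 of 36 members were above it on all arrays, against 25 with the 95th.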
